A study of Arabidopsis thaliana with 12 samples.

Results

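The genes described here are the 122 that the mitochondrial genome of Arabidopsis thaliana carries, out of 27655 genes in the deposited tables. They were taken as every row listed on the mitochondrial chromosome, and all have locus codes that start with ATMG. Their names in the files, with ORF25 and ORFX placed by their RefSeq names, separate 37 genes of known products from 85 open reading frames (ORFs). ORFs here are stretches that could encode a protein and carry only a code or a length as their name. The classes rest on names alone, so a row classed as an ORF may still have a known product. The study sequenced polyadenylated RNA of whole seedlings in 12 libraries, 3 each of geralt at 12 days, wild type at 12 days, geralt at 5 days and wild type at 5 days. The mutant is the T-DNA line SALK_116579, which the labels call both geralt and phr2, and the wild type is labelled WT Col (N6000). All were raised in vitro under short days on sucrose-supplemented B5 plates and collected whole, some hours after the lights came on. The mutant is represented by 1 line, and the design text speaks of biological replication without saying how plants were pooled, so p-values measure the spread between these libraries.

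A plant mitochondrial genome encodes a small set of core subunits of the respiratory chain, some ribosomal proteins and parts of the machinery that attaches heme to cytochrome c. Complex I (NADH dehydrogenase) takes electrons from NADH, complex III (cytochrome bc1) passes them to cytochrome c, complex IV (cytochrome c oxidase) hands them to oxygen, and complex V (ATP synthase) makes ATP. Most subunits of these complexes are encoded in the nucleus and imported. Many plant mitochondrial transcripts hold group II introns, and some genes are split into pieces that are transcribed apart and joined by trans-splicing. In plant mitochondria a poly(A) tail marks RNA for decay, so the reads described here come from the tailed part of the mitochondrial RNA and its share of the whole cannot be read from these libraries.

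Reads in genes ran from 41.6 to 115.03 M per library, and reads in mitochondrial genes from 12822 in wild-type library 12 (12 days) to 135575 in wild-type library 4 (5 days), 776851 in all. PHR2 (AT2G47590), the gene that names the line, measured 20.6 to 39.7 CPM (counts scaled to library size, with library composition corrected by TMM) in the 6 geralt libraries and 89.2 to 271 CPM in the 6 wild-type libraries, without overlap and lowest among wild-type libraries in library 4. Wild-type library 12 held the lowest share of reads in both organellar genomes among the wild-type libraries, and it was the lowest of all 12 libraries for 43 of the 76 mitochondrial genes that had enough reads for a test. Geralt library 1 (5 days) was the lowest for 18 of them, and geralt libraries 9 (12 days) and 7 (5 days) were the highest for 30 and 24. Wild-type libraries 4 and 12 and geralt library 5 were known from earlier results over all genes to stand apart, and the main results are given with and without them.

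By their names, 14 of the 122 genes belong to complex I, 1 to complex III, 3 to complex IV, 5 to complex V, 5 to cytochrome c maturation and 6 to the mitochondrial ribosome. MATR encodes a maturase, a protein that helps splice group II introns, and ORFX encodes a membrane transport protein (mttB in RefSeq). YMF19_2 is atp8 in RefSeq, a further subunit of complex V, but by its name it is not counted in that class here. Complex I genes took 51.7% of all mitochondrial gene reads, complex V 13.1%, complex IV 8.48%, MATR 4.53%, cytochrome c maturation 3.06%, ribosomal proteins 2.44% and complex III 1.08%. These are shares of the reads counted on mitochondrial rows, and their order depends on how reads were divided with the chromosome 2 copies described below. COB_2, the only complex III gene, had 8355 reads on its row and 104585 on its copy. The 85 rows classed as ORFs by name together took 13.9%, and 1 of them, ATMG00090, which is listed by its code alone, took 5.83%. No read was counted in 10 genes, of which 7 were ORFs. The other 3 were RPL5_2 and RPS7_2, which encode ribosomal proteins, and NAD5B, an exon of a trans-spliced gene that is 22 bases long. A count of 0 in a library leaves room for up to 3 reads, by counting error alone.

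The filter on low counts left 76 genes for the test, 33 of known product and 43 ORFs. The gene just inside it was ORF120 with 57 reads over the 12 libraries, and the one just outside with the most reads was ORF251 (ATMG01110) with 78. The 46 genes left out had a median of 15 reads. Statements on tested genes below therefore do not cover the ORFs of lowest level.

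Levels between genes were compared as the authors' TPM values, which are scaled by exon length. ATP6-1, a subunit of the proton channel of complex V, had the highest mean at 86.3 TPM over the 12 libraries, with a range of 6.98 to 191 TPM. Of its reads 52.9% were listed as unique, so this rank is that of the row. NAD2B followed at 62.2 TPM and COX1, the catalytic core subunit of complex IV, at 58.6 TPM. NAD5A averaged 46.9 TPM, NAD5C 45.1 TPM and MATR 42.6 TPM, so that the spread between libraries exceeded the steps between these neighbours. Among cytochrome c maturation genes CCB452 (ccmFC in RefSeq) led with 8.60 TPM, ahead of CCB382 (ccmFN1) with 7.40 TPM and CCB256 (ccmC) with 3.13 TPM. Among ribosomal proteins RPSL2 (rps12 in RefSeq) averaged 21.1 TPM, RPL2 11.8 TPM and RPL16_1 6.91 TPM. Among the rows classed as ORFs by name, the highest means were those of ATMG00090 with 38.2 TPM, ORF294 with 30.6 TPM and ORF114 with 19.5 TPM. ATMG00090 is listed by its code alone and has 2 exons. By reads alone, without regard to length, NAD4 with 15.3% and NAD7 with 12.1% of all mitochondrial gene reads stood first.

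Chromosome 2 of Arabidopsis holds a large insertion of mitochondrial DNA near its centromere, and reads can match both copies. In RefSeq's TAIR10.1 genome the insertion spanned chr2:3239038-3509765, and 99.6% of its 270728 bases aligned to the mitochondrial genome at a mean identity of 99.91%. These alignments covered 72.2% of the mitochondrial genome. The files list 94 genes inside that span, of which 89 had reads. Of 29 mitochondrial genes of known product that could be matched to RefSeq, 14 had an identical full-length copy in the insertion. The opening of NAD3, a membrane subunit of complex I, and that of ATP9, the ring subunit of complex V, are shown with their copies because NAD3's division of reads varied most between libraries and ATP9's row held almost none of its pair's reads. All 4 stretches are the first 90 coding bases in RefSeq (TAIR10.1), and capitals mark the start codon.
NAD3 at chrMt:288044-288133, plus strand: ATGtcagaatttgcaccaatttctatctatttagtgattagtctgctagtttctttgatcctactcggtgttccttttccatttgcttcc
AT2G07751 at chr2:3270008-3270097, plus strand: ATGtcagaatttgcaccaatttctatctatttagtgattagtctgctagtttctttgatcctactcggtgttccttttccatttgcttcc
ATP9 at chrMt:271096-271185, minus strand: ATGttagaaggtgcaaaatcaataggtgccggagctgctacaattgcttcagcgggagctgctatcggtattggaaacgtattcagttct
AT2G07671 at chr2:3251991-3252080, minus strand: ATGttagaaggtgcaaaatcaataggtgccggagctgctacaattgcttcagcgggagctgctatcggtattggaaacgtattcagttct

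The deposited counts of these pairs divided the reads in different ways. ATP9 kept 21 reads on the mitochondrial row against 17523 on AT2G07671, 0.12% of the pair's reads. For NAD3 the mitochondrial row held 90.7% of the pair's reads in geralt library 5 and 59.1% in geralt library 11, both at 12 days, and 79.0% in wild-type library 8 at 5 days. In the other 9 libraries it held at most 8.26%. YMF19_2 and RPSL2 kept close to an even split in every library, with 48.8% to 53.1% and 47.5% to 55.2% of the pair's reads on the mitochondrial row. COB_2, the cytochrome b of complex III, held 7.40% of its pair's 112940 reads, COX3 21.1% and ATP1_2, a catalytic subunit of complex V, 18.7%. RPL5_2 and RPS7_2, at 0 on the mitochondrial rows, had 15741 and 1932 reads on their chromosome 2 rows. ATP6-1 and ATP6-2 were both paired with AT2G07741, which held 0 reads in every library. Of their own reads 52.9% and 75.4% were listed as unique. How the authors' counting assigned a read that matches both copies is recorded in no label or header used here, so the level of any of these genes is a level of the row and not of the mitochondrial transcript.

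**Figure D1:**
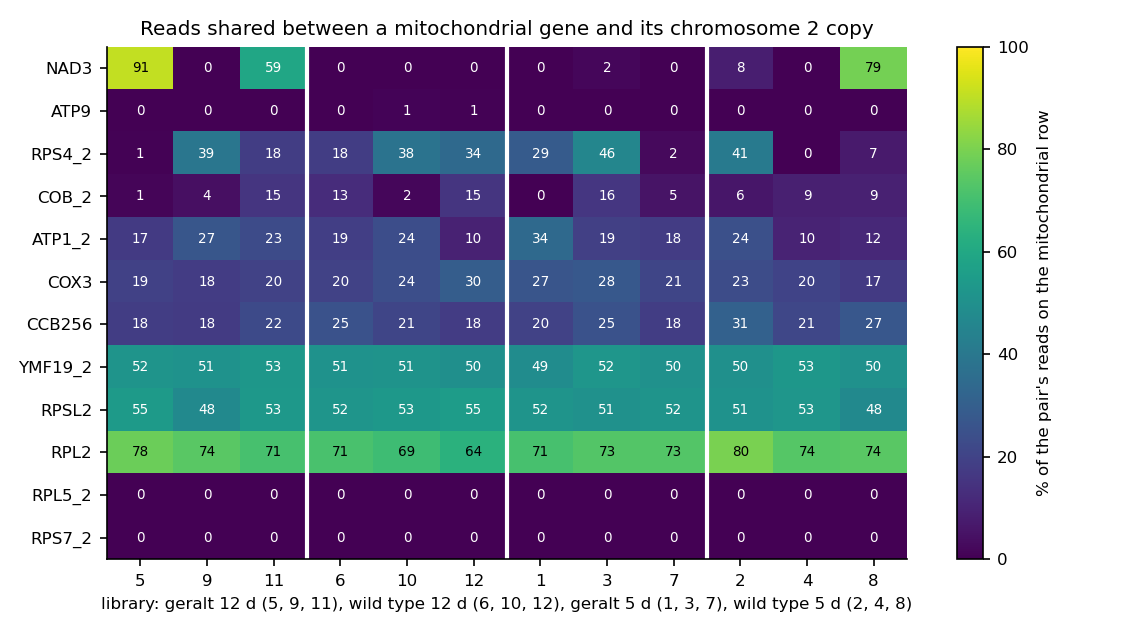
Each cell gives the percentage of a pair's reads that the files place on the mitochondrial row (rows: 12 mitochondrial genes with an identical or near-identical chromosome 2 gene; columns: the 12 libraries, white lines between groups). NAD3 reaches 90.7% in geralt library 5 and 0% in 7 others, while YMF19_2 stays between 48.8% and 53.1%.

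Other members differed from the insertion or had no copy there. NAD9, CCB206, COX2, ORF25, NAD4L and COX1 had no match in the insertion at 98% identity or more, with short matches left out. MATR differed from its copy at 5 bases, and its reads were all listed as unique. A pair of these positions is shown because they are what could tell a read of MATR from a read of the insertion. Capitals mark the differing base, and positions are counted from 1 at the start of the RefSeq gene, so that G55A reads as G in MATR and A on chromosome 2.
MATR, G55A, chrMt:231131-231155, plus strand: cccgagtttccaGacacatcgcatt
chromosome 2 copy, chr2:3402631-3402655, minus strand: cccgagtttccaAacacatcgcatt
MATR, A731G, chrMt:231807-231831, plus strand: aggctgaattctAtggtggagaacg
chromosome 2 copy, chr2:3401955-3401979, minus strand: aggctgaattctGtggtggagaacg

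NAD6, a membrane subunit of complex I, has an identical copy at chr2:3467266-3467883 where the files list no chromosome 2 gene, and 99.7% of its reads were listed as unique. A read listed as unique in these files is thus not known to match only 1 place in the genome. Over all mitochondrial genes 85.5% to 89.4% of reads per library were listed as unique, against 99.2% to 99.5% over chromosome genes. Some members also overlap each other: 10 pairs overlapped, 6 on the same strand and 4 on opposite strands. MATR lies wholly within NAD1C on the same strand, and ORF107H within NAD2B, so their reads cannot be told apart by position.

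Mitochondrial genes held a larger share of all gene reads in geralt than in wild type at 12 days, and at 5 days the groups overlapped. At 12 days the share was 0.193%, 0.220% and 0.108% in geralt libraries 5, 9 and 11, against 0.0754%, 0.0697% and 0.0140% in wild-type libraries 6, 10 and 12. Every 12-day geralt library lay above every 12-day wild-type library, and wild-type library 12 was far below its group. At 5 days the share was 0.0649%, 0.148% and 0.200% in geralt libraries 1, 3 and 7, against 0.0822%, 0.118% and 0.0868% in wild-type libraries 2, 4 and 8. Geralt library 1 lay below all wild-type libraries of its age, and the other geralt libraries lay above them. The means were 0.174% ± 0.059 in geralt and 0.0530% ± 0.034 in wild type at 12 days (SD, n = 3 each), and 0.137% ± 0.068 in geralt and 0.0956% ± 0.019 in wild type at 5 days (SD, n = 3 each). The difference of 0.121 percentage points at 12 days ranged from 0.0973 to 0.154 when any library was left out, and the difference of 0.0418 at 5 days ranged from 0.0106 to 0.0780. Without wild-type libraries 4 and 12 and geralt library 5 together, the differences were 0.0914 at 12 days and 0.0529 at 5 days. In tailed RNA of whole seedlings, this share cannot separate the number of mitochondria, the RNA per mitochondrion and the part of that RNA with a tail. The cause of the difference was not tested.

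Other measures are given beside this share, and their part in it was not tested. The first is of near-identical sequence, so it is not independent of the share. Genes of the chromosome 2 insertion held 0.102%, 0.116% and 0.0522% of reads in geralt libraries 5, 9 and 11, against 0.0367%, 0.0351% and 0.00698% in wild-type libraries 6, 10 and 12. Their reads stood at 45.6 to 53.0 per 100 mitochondrial gene reads in all 12 libraries, so a library that was high for the one was high for the other. Intron reads in the remaining chromosome genes made up 1.22%, 1.12% and 0.874% of those genes' reads in geralt libraries 5, 9 and 11, against 0.769%, 0.757% and 0.875% in wild-type libraries 6, 10 and 12. At 5 days they made up 0.848%, 1.37% and 1.30% in geralt libraries 1, 3 and 7, against 0.709%, 1.10% and 0.923% in wild-type libraries 2, 4 and 8. The geralt libraries with the largest mitochondrial shares at 5 days, 3 and 7, also had the largest shares of intron reads. At 12 days wild-type library 12, the lowest for the mitochondrial share, had the highest intron share of its group, 0.875%. Plastid genes did not follow the same order: they held 0.530% ± 0.21 in geralt and 0.541% ± 0.33 in wild type at 12 days (SD, n = 3 each), and 0.269% ± 0.13 in geralt and 0.713% ± 0.11 in wild type at 5 days (SD, n = 3 each).

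**Figure D2:**
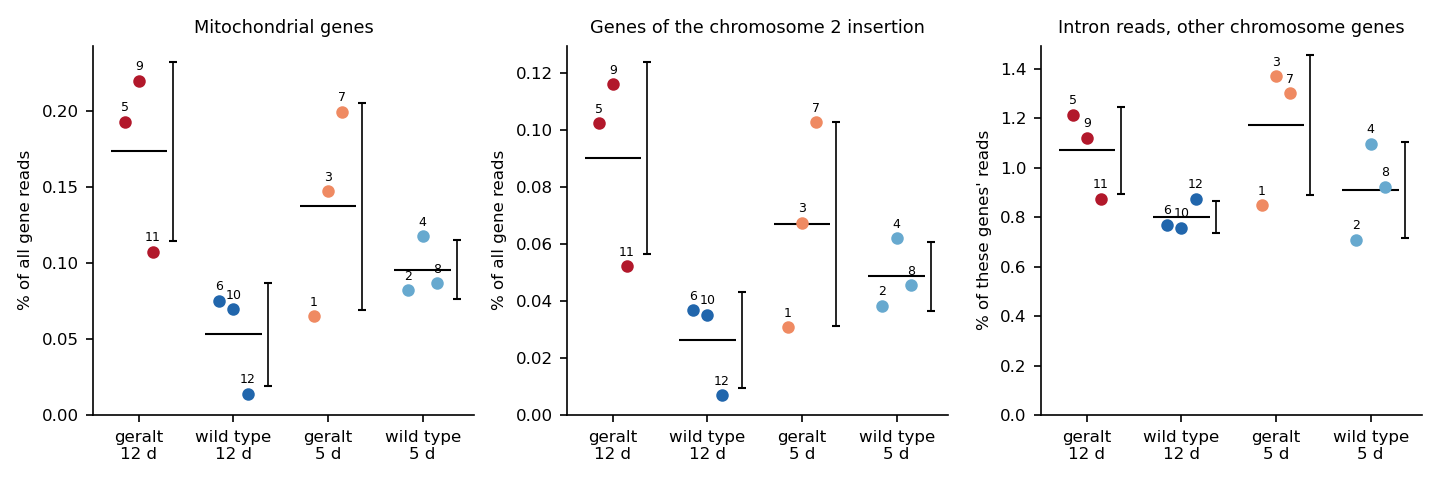
Percentage of gene reads in the 122 mitochondrial genes (left), in the 94 genes of the chromosome 2 insertion (middle), and percentage of intron reads in the other chromosome genes (right), by library; lines are group means, bars are 1 SD to either side (n = 3), and numbers are library numbers. In the left and middle panels the 12-day geralt libraries lie above the 12-day wild-type libraries, and the 5-day groups overlap.

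Gene by gene, the question was which mitochondrial transcripts differed between geralt and wild type at 12 days. No tested member passed an adjusted p of 0.05 in edgeR's quasi-likelihood test with Benjamini-Hochberg adjustment, against 0.8% of all 21122 tested genes in either direction and 0.436% higher. At an unadjusted p under 0.05 there were 25 of the 76 (32.9%, against 19.0% of all tested genes), and DESeq2 called 4 (6.18% of all genes): CCB206, CCB203, NAD2A and ORF145A, all higher. The median log2 fold change of the 76 tested members was 1.27, with 72 above 0 and all 33 genes of known product above 0, beside a median of -0.02 over all tested genes. In 29 of the 76, or 38.2%, every geralt library lay above every wild-type library, and this order held for 10.2% of all tested genes. In none did every geralt library lie below, against 8.91% of all tested genes. Without wild-type library 12 the median was 0.85, and without wild-type libraries 4 and 12 and geralt library 5 together it was 0.78.

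Among complex I genes the 12-day log2 fold changes had a median of 1.47, with all 13 tested members above 0 and 10 at an unadjusted p under 0.05. The 13 include NAD3, whose row shares its reads with chromosome 2. NAD4, a proton-pumping membrane subunit (ATMG00580, bases 161693 to 169674 of the files' mitochondrial genome, plus strand), measured 228, 386 and 154 CPM in geralt libraries 5, 9 and 11, against 102, 155 and 19.7 CPM in wild-type libraries 6, 10 and 12. Geralt library 11 and wild-type library 10 met at nearly the same level, so the groups overlapped slightly. The log2 fold change was 1.47 (SE 0.60, edgeR adjusted p = 0.213), and 0.99 without wild-type library 12. NAD7, a subunit of the arm that carries electrons (ATMG00510, bases 132071 to 138153, plus strand), measured 212, 216 and 108 CPM in geralt libraries 5, 9 and 11, against 93.1, 98.1 and 18.0 CPM in wild-type libraries 6, 10 and 12. Here all geralt libraries were above all wild-type libraries, with a log2 fold change of 1.36 (SE 0.53, edgeR adjusted p = 0.200).

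NAD2A, the 5′ piece of the trans-spliced nad2 gene, measured 26.3, 26.0 and 12.2 CPM in geralt libraries 5, 9 and 11, against 9.76, 6.52 and 0.964 CPM in wild-type libraries 6, 10 and 12. The groups did not overlap, and its log2 fold change was 1.91 (SE 0.65, edgeR adjusted p = 0.155; DESeq2 adjusted p = 0.0371). NAD2B, the 3′ piece of the same gene, had a log2 fold change of 1.04 (SE 0.51, edgeR adjusted p = 0.294), also without overlap. NAD9, which sits in the peripheral arm, had no copy found in the insertion. It measured 18.1, 11.8 and 10.4 CPM in geralt libraries 5, 9 and 11, against 6.58, 5.54 and 1.78 CPM in wild-type libraries 6, 10 and 12. It too was without overlap, with a log2 fold change of 1.54 (SE 0.61, edgeR adjusted p = 0.204).

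The remaining complexes had smaller medians. Complex IV had a median of 1.02 over 3 genes, and complex V 0.77 over 4. YMF19_2 (atp8 in RefSeq), which is not counted among these 4, had a log2 fold change of 0.57. COX1 measured 99.6, 120 and 54.1 CPM in geralt libraries 5, 9 and 11, against 45.4, 36.7 and 4.75 CPM in wild-type libraries 6, 10 and 12. Its groups did not overlap, and its log2 fold change was 1.66 (SE 0.66, edgeR adjusted p = 0.208). COX2, which carries the copper site that receives electrons from cytochrome c, had a log2 fold change of 0.70 (SE 0.43, edgeR adjusted p = 0.397) with overlapping groups. ATP6-1 measured 80.7, 150 and 66.9 CPM in geralt libraries 5, 9 and 11, against 75.2, 68.2 and 6.58 CPM in wild-type libraries 6, 10 and 12, so that only geralt library 9 stood well apart from wild-type libraries 6 and 10. ORF25 (atp4 in RefSeq, a stalk subunit of complex V) had the smallest fold change of the genes of known product, 0.47 on the log2 scale (SE 0.53, edgeR adjusted p = 0.665). COB_2 of complex III had 0.97 (SE 1.24, edgeR adjusted p = 0.708), on the row that shares its reads with chromosome 2.

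**Figure D3:**
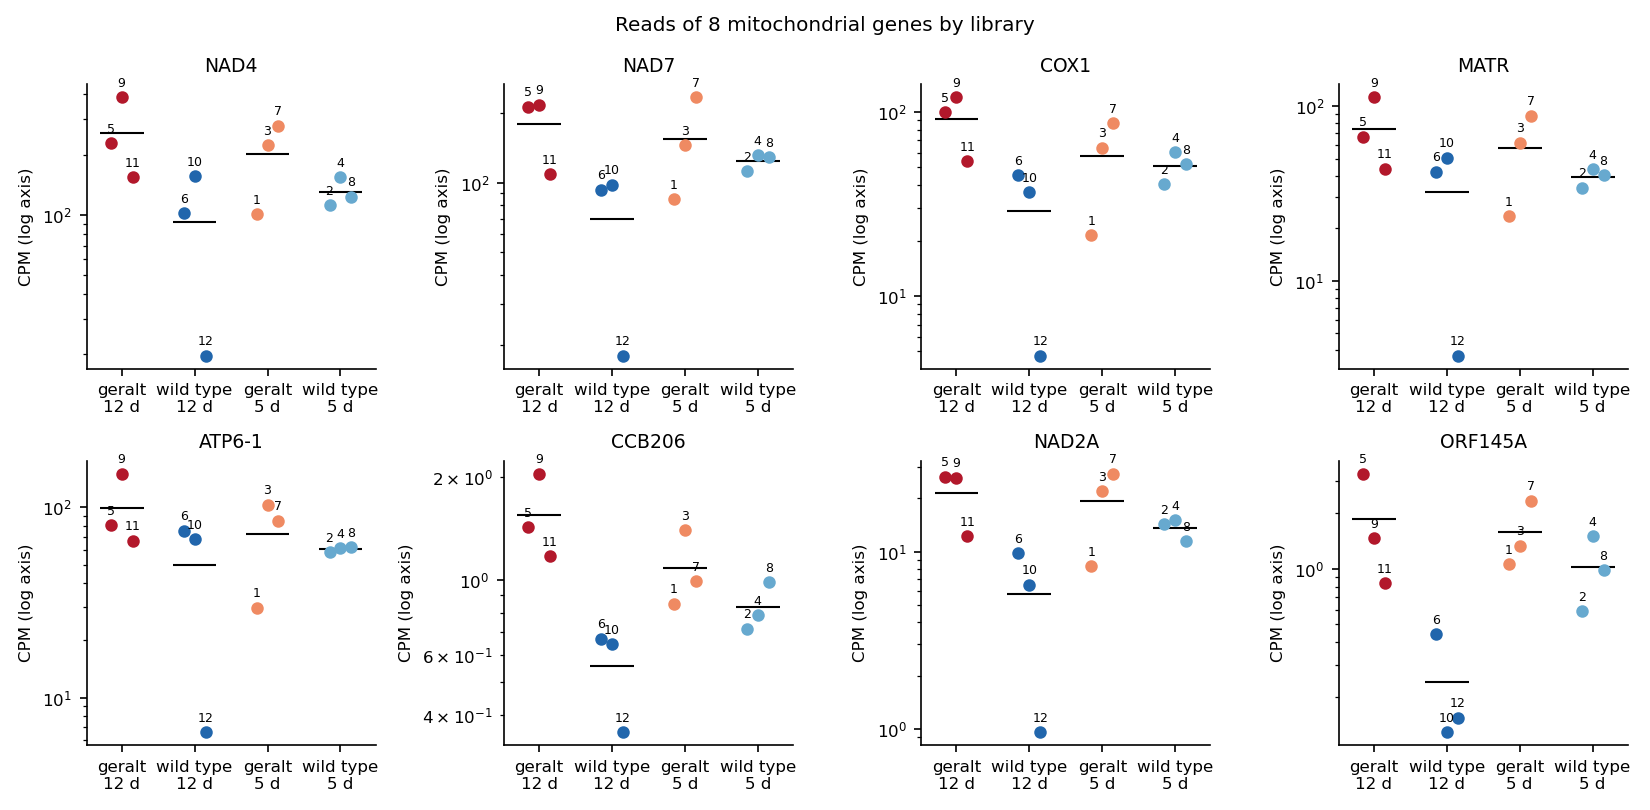
CPM of 8 mitochondrial genes by library on a log axis, with group means as lines and library numbers beside the points. Wild-type library 12 is the lowest point for every gene shown except ORF145A, where it stands at 0.155 CPM beside library 10 at 0.129 CPM; NAD7, COX1, CCB206, NAD2A and ORF145A show no overlap of the genotypes at 12 days.

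The cytochrome c maturation genes, whose products carry heme across the inner membrane and attach it, had the median of complex I, 1.48 over 5 genes, with 4 at an unadjusted p under 0.05. CCB206 (ccmB in RefSeq, bases 30463 to 31083, plus strand) had no copy found in the insertion. It measured 1.43, 2.04 and 1.17 CPM in geralt libraries 5, 9 and 11, against 0.672, 0.647 and 0.357 CPM in wild-type libraries 6, 10 and 12. Its libraries did not overlap, and its log2 fold change was 1.48 (SE 0.42, edgeR adjusted p = 0.108; DESeq2 adjusted p = 0.0161). CCB203 (ccmFN2) had a log2 fold change of 2.05 (SE 0.72, edgeR adjusted p = 0.166; DESeq2 adjusted p = 0.0489). CCB452 had 1.33 (SE 0.48, edgeR adjusted p = 0.174) and CCB382 1.58 (SE 0.62, edgeR adjusted p = 0.199). All 4 were without overlap, and CCB256, the member that shares reads with 2 chromosome 2 genes, had 0.89 (SE 0.65, edgeR adjusted p = 0.479).

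Ribosomal proteins had a median of 1.21 over 4 tested genes. RPL2 of the large subunit measured 22.7, 25.6 and 12.8 CPM in geralt libraries 5, 9 and 11, against 10.3, 10.5 and 1.05 CPM in wild-type libraries 6, 10 and 12, without overlap (log2 fold change 1.49, SE 0.61, edgeR adjusted p = 0.216). MATR had a log2 fold change of 1.21 (SE 0.70, edgeR adjusted p = 0.371) and ORFX 1.02 (SE 0.63, edgeR adjusted p = 0.394), both with overlapping groups. The 43 tested ORFs had a median of 1.24, with 39 above 0. The lowest values at 12 days were those of ORF313, ORF139B and ORF139A, at -1.08, -0.29 and -0.27. ORF313 had reads in 3 libraries only, 205 in geralt library 9, 311 in wild-type library 10 and 136 in wild-type library 12, and none of these was listed as unique. The fitted values were highest for NAD3, ORF120 and NAD1A, the first exon of the trans-spliced nad1 gene. ORF120 and NAD1A had few reads, and the row of NAD3 shared its reads with chromosome 2. ORF120 had 5 reads in geralt library 9 and none in the other 12-day libraries, and NAD3 had reads in geralt libraries 5 and 11 alone at that age, 156 and 120. No fold is given for these against a group at 0. With the reads of its chromosome 2 copy added, NAD3 had a 12-day log2 fold change of 0.30 (SE 0.60, edgeR adjusted p = 0.819). Omission of wild-type library 12 lowered the 12-day log2 fold change by over 1.5 times in several genes, to 0.90 in NAD7, 0.59 in NAD2B, 0.28 in COX2, 0.47 in ATP6-1, 0.68 in MATR and 0.97 in RPL2. COX2 was at 1.16 without wild-type library 10.

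**Figure D4:**
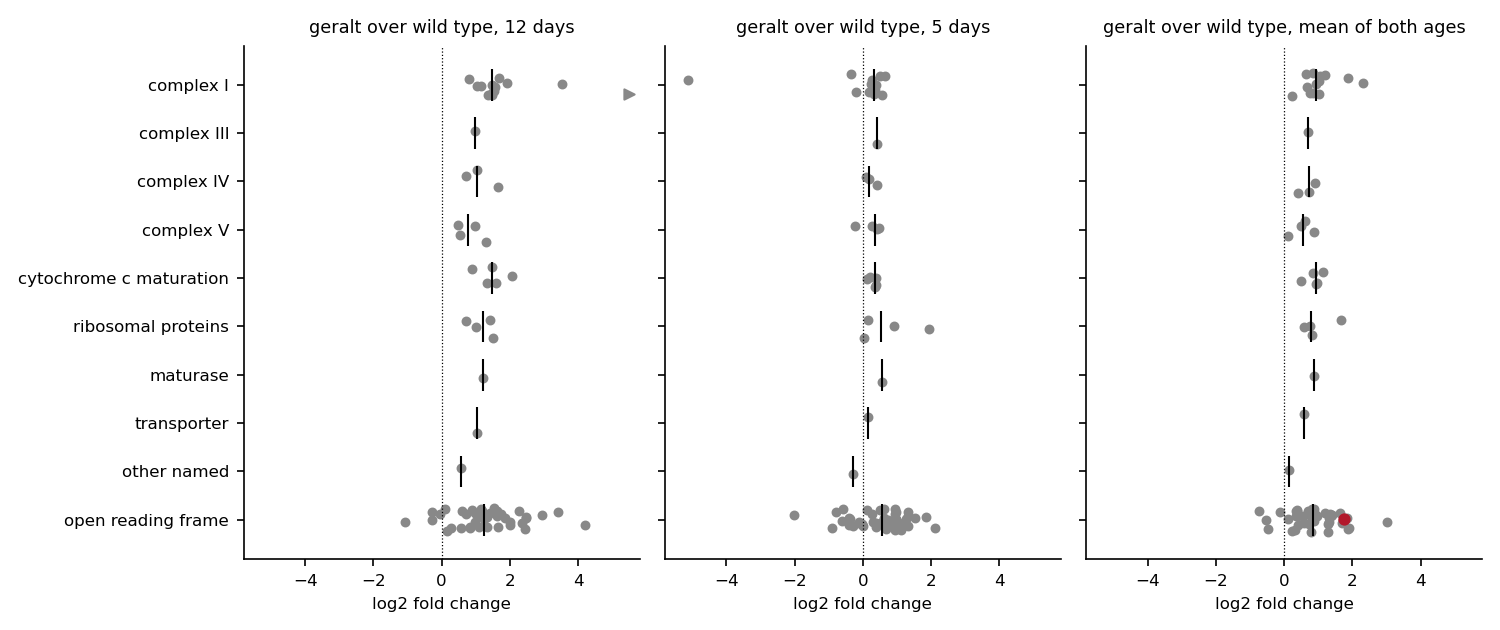
Fitted log2 fold changes of the 76 tested mitochondrial genes, geralt over wild type, by class of gene, at 12 days, at 5 days and as the mean of both ages. Each point is a gene, and vertical bars are class medians. The triangle is a value beyond the axis (NAD3, whose row shares its reads with chromosome 2). The red point is ORF145A, the gene past the threshold. At 12 days 72 of 76 points lie right of 0, at 5 days 57.

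At 5 days the genotypes differed less, and the spread within geralt was wide. No tested member passed in edgeR (0.26% of all tested genes did in either direction, 0.0331% higher) or in DESeq2 (4.0% of all genes), and 1, NAD3, had an unadjusted p under 0.05 (1.32%, against 14.1% of all tested genes). Among the tested members 57 of 76 lay above 0, at a median log2 fold change of 0.38, beside 0.01 over all tested genes. It was 0.73 without geralt library 1 and 0.00 without geralt library 7, so its size rested on single libraries. In 6 of 76 members, or 7.89%, every geralt library lay above every wild-type library, against 12.9% of all tested genes, and in none did every geralt library lie below, against 14.3%. The 6 were the ORFs ORF120, ORF170, ORF105A, ORF102, ORF205 and ORF107H. ORF105A was also the only tested member without overlap at both ages (1.32% of members, 2.51% of all tested genes), with 167 reads in all.

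NAD4 measured 100, 223 and 279 CPM in geralt libraries 1, 3 and 7 at 5 days, against 111, 154 and 123 CPM in wild-type libraries 2, 4 and 8. COX1 measured 21.3, 63.7 and 86.6 CPM in geralt libraries 1, 3 and 7, against 40.3, 60.3 and 51.8 CPM in wild-type libraries 2, 4 and 8. In both genes geralt library 1 was the lowest of the 6 and geralt libraries 3 and 7 were the highest. The log2 fold changes were 0.63 for NAD4 (SE 0.59, edgeR adjusted p = 0.673) and 0.17 for COX1 (SE 0.64, edgeR adjusted p = 0.937). The largest value at 5 days was that of ORF205, 2.11 (SE 0.99, edgeR adjusted p = 0.361), followed by RPS4_2 with 1.94, whose row took between 0.253% and 45.9% of its pair's reads. The RPS4_2 value was 0.70 with the reads of its copy added, 0.0049 when geralt library 3 was omitted and 3.38 when wild-type library 2 was. The smallest after NAD3 were ORF118 with -2.01 and ORF262 with -0.91.

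Averaged over both ages, 1 member rose in geralt, against 2.21% of all tested genes that rose and 5.53% that passed in either direction. This was ORF145A (ATMG00300, bases 89617 to 90054, minus strand), an open reading frame without a named product, with 895 reads in all, each listed as unique. It measured 3.28, 1.47 and 0.833 CPM in geralt libraries 5, 9 and 11, against 0.442, 0.129 and 0.155 CPM in wild-type libraries 6, 10 and 12, all at 12 days. At 5 days it measured 1.06, 1.33 and 2.35 CPM in geralt libraries 1, 3 and 7, against 0.590, 1.50 and 0.982 CPM in wild-type libraries 2, 4 and 8. The genotypes were apart at 12 days and overlapped at 5 days. The log2 fold change was 1.77 (SE 0.45, edgeR adjusted p = 0.0397), and at 12 days alone 2.93 (SE 0.67, edgeR adjusted p = 0.0633). The call ended in 9 of 12 fits that left out a single library, those without geralt libraries 1, 3, 5, 7 or 9 or wild-type libraries 2, 8, 10 or 12, with an adjusted p of up to 0.103. Without wild-type library 10, ORF170 and ORF205 passed in its place.

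The median of the 76 tested members over both ages was 0.84, with 72 above 0, and 17 had an unadjusted p under 0.05 (22.4%, close to the 20.8% of all tested genes). DESeq2 called 2 of them, CCB206 and ORF145A (10.1% of all genes). CCB206 had a log2 fold change of 0.93 in edgeR (SE 0.29, adjusted p = 0.0899). NAD2A followed with 1.20 (SE 0.45, edgeR adjusted p = 0.143), and NAD4 with 1.05 (SE 0.42, edgeR adjusted p = 0.171). The smallest values were -0.72 for ORF118, -0.54 for ORF313 and -0.47 for ORF262, and the largest that of ORF120, on 57 reads.

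Between 12 and 5 days within a genotype no member passed in edgeR, nor did any of the 21122 genes (0.0%). In geralt the median of the tested members was 0.24, with 57 of 76 above 0 and 2 at an unadjusted p under 0.05 (2.63%, against 4.61% of all tested genes), and DESeq2 called 1, ORF313 (0.274% of all genes). Its sign rested on single libraries: omission of geralt library 1 gave -0.13, that of library 9 gave 0.05, that of library 11 gave 0.46 and that of library 7 gave 0.66. In wild type the median was -0.65, with 12 of 76 above 0 and 4 at an unadjusted p under 0.05 (5.26%, against 19.8% of all tested genes), and DESeq2 called 2 (5.43% of all genes), ORF145A as lower and ORF313 as higher at 12 days. All 13 tested complex I genes were below 0 in wild type, with a median of -0.83. The wild-type median over all 76 tested members, -0.65, was -0.25 without library 12, -0.39 without library 4 and -1.02 without library 10. Without wild-type libraries 4 and 12 and geralt library 5 together it was 0.03.

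Whether the genotype difference itself changed with age was tested as an interaction, the difference at 12 days minus that at 5 days. No member passed, nor did any gene (0.0%), 4 members had an unadjusted p under 0.05 (5.26%, against 10.3% of all tested genes), and DESeq2 called none (0.378% of all genes). The median was 0.86, with 65 of 76 above 0 and all 13 complex I genes above 0. Omission of wild-type library 12 gave 0.47, that of geralt library 1 gave 0.48, and that of wild-type libraries 4 and 12 with geralt library 5 gave 0.23.

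Classes were also compared as shares of the mitochondrial reads. At 12 days complex I genes took 53.9%, 51.0% and 50.4% of the mitochondrial gene reads in geralt libraries 5, 9 and 11, against 47.0%, 47.2% and 46.9% in wild-type libraries 6, 10 and 12. The geralt values were all above the wild-type values, which lay close together in spite of the low total of library 12. At 5 days the complex I share was 55.9%, 51.7% and 54.3% in geralt libraries 1, 3 and 7, against 49.8%, 53.0% and 50.1% in wild-type libraries 2, 4 and 8, with overlap. Rows classed as ORFs by name, ATMG00090 included, took 14.2%, 13.4% and 13.9% in geralt libraries 5, 9 and 11, against 14.3%, 16.0% and 18.3% in wild-type libraries 6, 10 and 12, without overlap. Complex IV, complex V, cytochrome c maturation and ribosomal protein genes kept overlapping shares at 12 days. Complex III, a single row that shares reads with chromosome 2, varied most, between 0.0137% in geralt library 1 and 2.19% in geralt library 3. Scaled to the mitochondrial total in place of all genes, the 12-day log2 fold changes became -0.07 for ATP6-1, -0.60 for COX2 and -1.36 for ORF25, while NAD4, NAD7, COX1 and MATR stayed above 0, at 0.25, 0.09, 0.53 and 0.17.

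Members followed the mitochondrial total to different degrees. As a description over the 12 libraries, which share their depth and scaling, the correlation of a gene's log2 CPM with that of all other members summed had a median of 0.79 over the 76 tested members. It was over 0.8 for 37 and under 0.5 for 17. The complex I genes had a median of 0.96 and the ORFs 0.62, and MATR stood at 0.995. The tested ORFs include rows of few reads, down to 57 in ORF120, and the part of read depth in this difference was not tested. COB_2, on a row that shares its reads with chromosome 2, stood at 0.50.

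For 12 members the files list more than 1 exon, and for these they count reads that reach beyond the annotated exons and reads that span an exon-exon junction. The first kind includes reads past a gene's ends, since 87 of the 110 single-exon members also had such reads, while no single-exon member had exon-exon reads. NAD4 had 87.0% of its reads reaching beyond its exons and 46.4 exon-exon reads per 100 exon reads, and NAD7 had 84.8% and 39.2. How many of the reads beyond exons lie in introns is not separated in these counts. The starts of introns 1 to 3 of NAD4 and 2 to 4 of NAD7 are shown, from RefSeq (TAIR10.1, minus strand), because these 2 genes held the most reads. Each line has 10 exon bases and 15 intron bases, and capitals mark the first 5 bases of the intron.
NAD4 intron 1, chrMt:215087-215111: tccctatgttGTGCGgagcggagta
NAD4 intron 2, chrMt:213100-213124: atgtttagtcGGGCGgcggccgtta
NAD4 intron 3, chrMt:209596-209620: cttgttggagGGGCGaccgtccgtt
NAD7 intron 2, chrMt:244140-244164: atcgttcagaGGGCGatcgcggagt
NAD7 intron 3, chrMt:242610-242634: ttaagaggtcGTGCGacatgaagac
NAD7 intron 4, chrMt:241313-241337: ccatggaatcGTGCGtcgtgtgaaa

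The introns shown began with GTGCG or with GGGCG. The motif GTGNG is the usual start of a group II intron. It stood at the first bases of 6 of 10 introns that could be read from RefSeq. The 10 introns read, matching or not, were those of NAD4, NAD7, COX2, CCB452 and RPL2. GTGNG matched 0.240% of all 5-base windows of the mitochondrial genome on both strands. The introns of NAD4 were 1472, 3081 and 1942 bases long, and introns 2 to 4 of NAD7 were 1063, 1053 and 1816 bases long.

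The 12 members of several exons differed widely in both measures. Reads beyond exons were most frequent in NAD1C (87.7%), whose intron holds MATR, and least in NAD5A (16.6%). COX2 had 81.4% beyond its exons and 11.4 exon-exon reads per 100 exon reads, and CCB452 had 67.6% and 12.8. NAD1B had 85.0% and 78.3, the most exon-exon reads per exon read, while ATMG00090 had 0.508 per 100, or 134 exon-exon reads in all. Trans-spliced joints between NAD1, NAD2 or NAD5 pieces lie on separate rows and are not counted here.

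**Figure D5:**
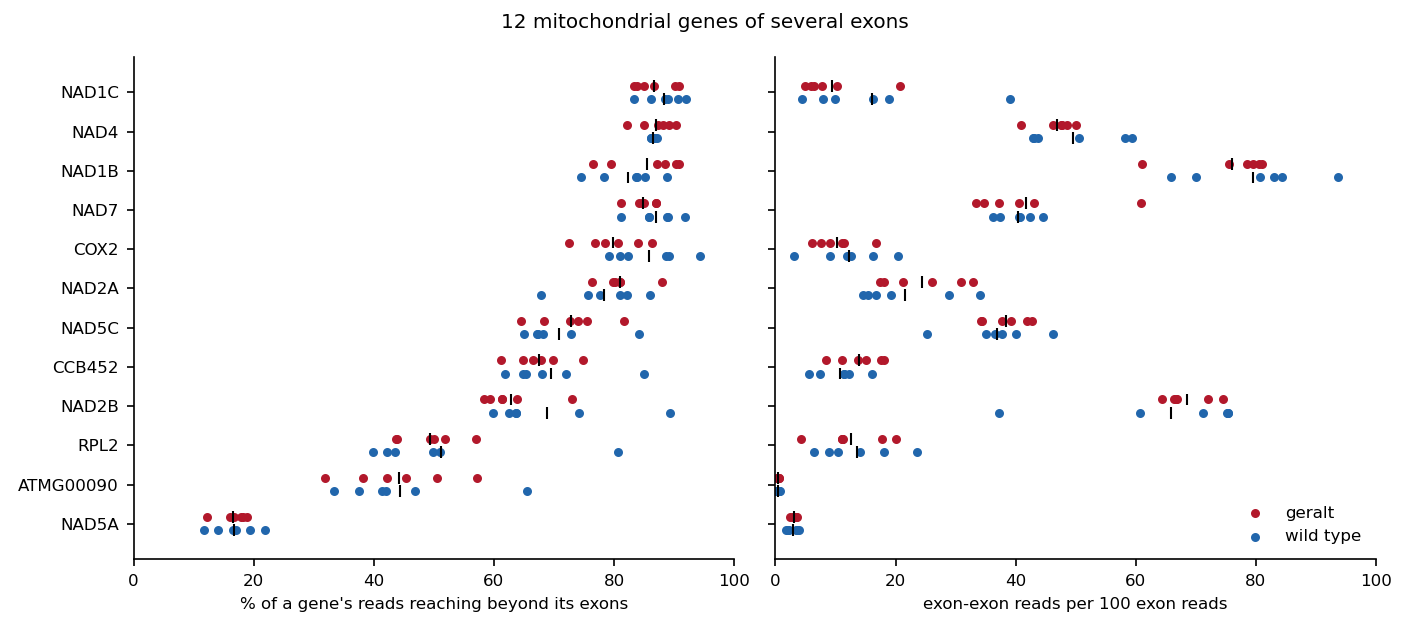
Percentage of a gene's reads that reach beyond its annotated exons (left) and exon-exon reads per 100 exon reads (right) for the 12 mitochondrial genes of several exons; each point is a library, geralt above wild type within a gene, and ticks are means of 6 libraries. Over all libraries the left-hand values run from 16.6% in NAD5A to 87.7% in NAD1C, and the genotypes overlap within each gene.

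No splicing measure passed a test between the genotypes. In two-sided exact permutation tests of each gene, with genotypes exchanged inside each age, the lowest p of 24 was 0.085, for reads beyond the exons of COX2 (adjusted p = 0.81), where the mean was 79.8% in geralt and 85.8% in wild type. Summed over the 12 genes, reads beyond exons made up 71.9%, 72.3% and 68.5% in geralt libraries 5, 9 and 11, against 69.0%, 72.8% and 83.2% in wild-type libraries 6, 10 and 12. Wild-type library 12 stood above all others, and the other 11 libraries lay between 68.3% and 77.0%. Exon-exon reads per 100 exon reads were 27.9, 27.3 and 30.4 in geralt libraries 5, 9 and 11, against 26.2, 27.2 and 23.9 in wild-type libraries 6, 10 and 12. These values did not overlap at 12 days, but the nearest geralt and wild-type libraries, at 27.3 and 27.2, were almost level.

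Nuclear genes for the same complexes, 109 in 7 lists, were read from the same fit. At 12 days the median log2 fold change was 0.39 over 28 nuclear complex I genes, 0.62 over 10 of complex II, 0.51 over 17 of complex III and cytochrome c, 0.72 over 16 of complex IV, 0.54 over 9 of complex V, 0.10 over 3 of cytochrome c maturation and 0.33 over 25 factors of mitochondrial gene expression. At 5 days these medians were -0.06 for complex I, with 10 of 28 above 0, -0.06 for complex II, 0.11 for complex III and cytochrome c, 0.14 for complex IV, -0.04 for complex V, 0.40 for cytochrome c maturation and 0.15 for gene expression. Of the 108 tested, 1 passed in edgeR at 12 days, WHY2, against 0.8% of all tested genes in either direction and 0.436% higher. At that age 38 had an unadjusted p under 0.05 (35.2%, against 19.0% of all tested genes). DESeq2 called 11, all higher, and it called 6.18% of all genes in either direction. At 5 days none passed in edgeR (0.26% of all tested genes did), and 7 had an unadjusted p under 0.05 (6.48%, against 14.1% of all tested genes). DESeq2 called 1 at 5 days, the maturase NMAT1 (4.0% of all genes). For complex I at 12 days, the mitochondrial genes had a median of 1.47 with 13 of 13 above 0, and the nuclear genes 0.39 with 25 of 28 above 0. Between 12 and 5 days in wild type, 45 of the 108 had an unadjusted p under 0.05 in edgeR (41.7%, against 19.8% of all tested genes). DESeq2 called 14 there, none of them higher (5.43% of all genes). In geralt 4 had such a p (3.7%, against 4.61%). The nuclear complex I median between the ages was -0.56 in wild type and -0.07 in geralt.

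WHY2 (AT1G71260), a DNA-binding protein of the mitochondrial genome, measured 145, 88.3 and 106 CPM in geralt libraries 5, 9 and 11, against 65.2, 43.6 and 47.0 CPM in wild-type libraries 6, 10 and 12. The groups did not overlap. Between 12 and 5 days the log2 fold change of WHY2 was -0.80 in wild type and -0.04 in geralt. At 12 days WHY2 was higher in geralt by 1.13 on the log2 scale (SE 0.23, edgeR adjusted p = 0.0461). That call ended in 11 of 12 fits without a single library, with an adjusted p of up to 0.161, in the fit on the 6 libraries of 12 days (adjusted p = 0.289) and without wild-type libraries 4 and 12 and geralt library 5 together (log2 fold change 0.84, adjusted p = 0.215). Averaged over both ages 4 of the 108 tested nuclear genes rose, against 2.21% of all tested genes that rose. At an unadjusted p under 0.05 in edgeR there were 26 (24.1%, against 20.8% of all tested genes), and DESeq2 called 9 (10.1% of all genes). Of the 4, WHY2 rose by 0.75 (SE 0.16, edgeR adjusted p = 0.0216), and PNP2 (AT5G14580), the mitochondrial polynucleotide phosphorylase that degrades RNA, by 0.76 (SE 0.18, edgeR adjusted p = 0.0319). QCR7-2 (AT5G25450), a subunit of complex III, rose by 1.11 (SE 0.25, edgeR adjusted p = 0.0275), and AT3G51790 (CCME in RefSeq, a heme chaperone of cytochrome c maturation) by 0.71 (SE 0.19, edgeR adjusted p = 0.0445). Leaving out a single library ended these calls in 4 of 12 fits for WHY2, 6 for PNP2, 4 for QCR7-2 and 10 for AT3G51790. All 4 calls also ended without wild-type libraries 4 and 12 and geralt library 5 together, with edgeR adjusted p values of 0.0558 for WHY2, 0.0580 for PNP2, 0.0566 for QCR7-2 and 0.152 for AT3G51790.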

How the data were processed

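RNA was poly(A)-selected, and libraries were made with a Lexogen kit and sequenced as paired reads, per the labels' protocols; the lane of each library is not given. The authors deposited counts of total, unique, exon, intron and exon-exon reads per gene, and TPM values, per the file headers. Per the submitters' processing notes, the build was TAIR10. No source used here gives the aligner, the counter, strand use or the treatment of reads with several matches. The authors' own comparison tables were not used here.

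Total gene counts were tested with edgeR 4.0.16 in R 4.3.3 (TMM scaling, filterByExpr by group, quasi-likelihood test, a mean for each of 4 groups over all 12 libraries, 8 residual degrees of freedom, Benjamini-Hochberg over all tested genes, threshold 0.05). DESeq2 1.42.0 was an alternative. The standard error was the absolute log2 fold change over the square root of F. No p is given for totals over the members. The gene test was also run on simulated counts with the same dispersion for every gene and no outlying library. That run therefore does not cover the spread of the members between these libraries. Chromosome 2 copies were found with blastn 2.17.0+ in the RefSeq genome, at 98% identity or more. Its mitochondrial sequence is not the one in the files, so positions are not mixed; insertion genes are those within the aligned span. For splicing shares, a two-sided exact permutation test was run with genotypes exchanged inside each age, over 400 rearrangements, for which the smallest possible p is 0.005. Libraries of a group differed by a chi-square of at least 67.4 per degree of freedom, so none was a copy of another.

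Members and lists were chosen with earlier results of these data known. Genes named were those past the threshold, the 3 highest of each class by mean TPM, the 3 largest and smallest fold changes per genotype comparison, members of several exons and nuclear genes past the threshold. Genes called by DESeq2 alone, those without overlap at 5 days and the other members described were named after their values were seen. The start of 1 NAD7 intron is not reported here.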

Additional observations from a re-analysis of the deposited data

How the results depend on the processing

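Alternatives were another normalization, no filter on low counts, unique or exon reads, scaling from chromosome genes, only the libraries compared, DESeq2, omission of each library, omission of wild-type libraries 4 and 12 and geralt library 5 together and, chosen after seeing the data, reads summed with the chromosome 2 copy. No paired analysis was possible because library numbers run through the series, no pair of groups shares one, and no label ties consecutive numbers to a batch. DESeq2 called 4 members at 12 days, 2 over both ages, 1 between ages in geralt and 2 between ages in wild type, and 0 were called over both ages with exon reads or without libraries 4, 12 and 5. Over the 12 single omissions the members called ran from 0 to 1 at 12 days and from 0 to 2 over both ages. The median log2 fold change ran from 0.85 to 1.79 at 12 days, from 0.00 to 0.73 at 5 days and from 0.62 to 1.05 over both ages. For ORF145A over both ages it ran from 1.42 to 2.14, and its call also ended with exon reads (adjusted p = 0.0602), without libraries 4, 12 and 5 (1.48, adjusted p = 0.0968) and with member reads as library size (0.79, adjusted p = 0.531). With member reads as library size, values at 12 days turned negative for CCB206 (-0.28), ATP6-1 (-0.074), COX2 (-0.60), ORF25 (-1.36), NAD2B (-0.20) and CCB452 (-0.049), and over both ages for CCB206 (-0.032), NAD9 (-0.26), ATP6-1 (-0.092), COX2 (-0.38), ORF25 (-1.02) and NAD2B (-0.14); such values are shares of the mitochondrial total by construction. NAD3 at 5 days became 0.21 with its copy summed, and ORF262 at 12 days 0.19 with unique and 0.15 with exon reads; the cause was not tested. Single omissions also changed the sign of ORF25 over both ages (-0.12 to 0.36), ORF262 at 12 days (-0.34 to 0.63) and ORF313 at 12 days (-10.67 to 0.88). Depth limits the low ORFs most: 46 genes had too few reads for a test.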
